A study of Mus musculus with 22 samples.

Results

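Complement genes were followed in mouse spinal cord through 9 members taken by gene symbol: C1qa, C1qb and C1qc, which encode the chains of the recognition protein C1q, the central components C3 and C4b, the alternative pathway protease gene Cfb, the receptor genes C3ar1 and C5ar1, and the inhibitor gene Serping1. All 9 had a row among the 24060 gene rows of the count tables. All 9 passed the filter on low counts in both fractions described below, and only Cfb was lost to it, in 1 comparison.

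Complement is a set of secreted proteins that tag cells and debris for removal. C1q binds a target and, through its proteases, cleaves C4 and C2. The resulting convertase cleaves C3, whose fragments coat the target and act on receptors. In the central nervous system microglia are the main known source of C1q, and reactive astrocytes are a known source of C3 and C4.

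The tissue came from young adult female mice. All carried a Cre under a mouse Gfap promoter (mGFAP-Cre) and the RiboTag allele, so that cells with Cre activity made ribosomes with a hemagglutinin (HA) tag. The HA immunoprecipitate (HA IP) holds RNA pulled down with tagged ribosomes, and the flow-through holds RNA of the same homogenate that was not pulled down. The 3 arms were uninjured wild type (WT) mice (n = 4), WT mice with a severe crush spinal cord injury at thoracic level 10 (WT SCI, n = 4), and mice that carried STAT3-LoxP as well and had the same injury (STAT3-CKO SCI, n = 3). Injured tissue was the central 3 mm of the lesion taken 14 days after the crush. Deletion of Stat3 was driven by the same Gfap promoter, so it applied to cells with Cre activity. With both fractions of 11 animals there were 22 libraries, and no uninjured STAT3-CKO group was analysed here.

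HA IP libraries held 31292491 to 59337089 counts and flow-through libraries 3898755 to 11242654. The ribosomal RNA gene Rn45s took 9.49% to 39.70% of counts in uninjured libraries. Its share was 89.00% to 96.15% with WT SCI, against 49.95% to 89.23% with STAT3-CKO SCI. With Rn45s, Lars2 and Mir6236 left out, 26934866 to 51571785 counts remained per uninjured HA IP library and 620265 to 17348247 per injured one. For flow-through this was 2858044 to 10140612 and 91626 to 4022328, where STAT3-CKO SCI animal 270 lay within the uninjured range. In the shallowest, the flow-through of WT SCI animal 9935, 3 counts were worth 27.83 CPM (counts per 1000000, scaled by trimmed mean of M-values without those 3 rows, on 1 scale for all libraries). Stat3 in HA IP was 163.5 to 402.7 CPM in WT SCI and 48.79 to 80.80 CPM in STAT3-CKO SCI, and the groups did not overlap (log2 difference -2.17 ± 0.345 SE, adjusted p = 0.00331). In uninjured HA IP it was 79.93 to 95.70 CPM. STAT3-CKO SCI was not called against uninjured by edgeR's quasi-likelihood test (-0.44 ± 0.322, adjusted p = 0.452). In uninjured cord 10 of 10 astrocyte markers were called higher in HA IP than in flow-through. In WT SCI 8 of 10 were, and in STAT3-CKO SCI 10 of 10. Of all genes, 26.4%, 4.09% and 7.12% were called higher in these arms. Aqp4 (log2 difference 0.75) and Slc1a3 (0.47) were higher in WT SCI HA IP without a call. HA IP of injured cord also held microglia and macrophage markers: the summed level of 17 genes was 182.7 to 399.0 CPM in uninjured libraries. Injured WT libraries had 4555 to 15549.6 CPM and STAT3-CKO SCI libraries 6412 to 9489 CPM, with no gene of the list at 0. Of 8 oligodendrocyte markers, 7 were called higher in WT SCI than in uninjured HA IP (15.8% of all genes). Their summed level in WT SCI HA IP was 35786 to 52837 CPM, and that of the 10 astrocyte markers 19865 to 33886 CPM. In uninjured cord 7 of 8 were called lower in HA IP than in flow-through (24.2% of all genes). In WT SCI 2 of 8 were called higher in HA IP (4.09%) and 0 lower.

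Injury was accompanied by higher levels of most complement genes in both fractions, and the 2 injured genotypes differed in HA IP in C3 and C4b. Calls rest on edgeR's quasi-likelihood test, with Benjamini-Hochberg adjusted p-values over all genes tested and a threshold of 0.05. In HA IP, 7 of the 9 members were called higher in WT SCI than in uninjured cord and none lower, where 15.8% of all genes were called higher and 10.9% lower. Their median log2 difference was 4.07, against 0.00 over all genes. In flow-through, 8 of 9 were called higher, with a background of 16.7%, and the median was 4.56 against -0.09. Between the injured genotypes, 2 of 9 were called lower in STAT3-CKO SCI in HA IP, with a background of 0.562%. In flow-through 0 of 9 were called between the genotypes by edgeR or by DESeq2 (background 0.118% either way), and 0 of 9 had an unadjusted p under 0.05. Against uninjured cord, STAT3-CKO SCI had 6 members higher and 1 lower in HA IP (backgrounds 7.70% and 2.08%) and 8 higher in flow-through (10.4%). These comparisons share their WT groups and are not independent. In bulk tissue, fewer cells of a type and less RNA per cell cannot be told apart, so each difference below is one of RNA levels.

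**Figure D1:**
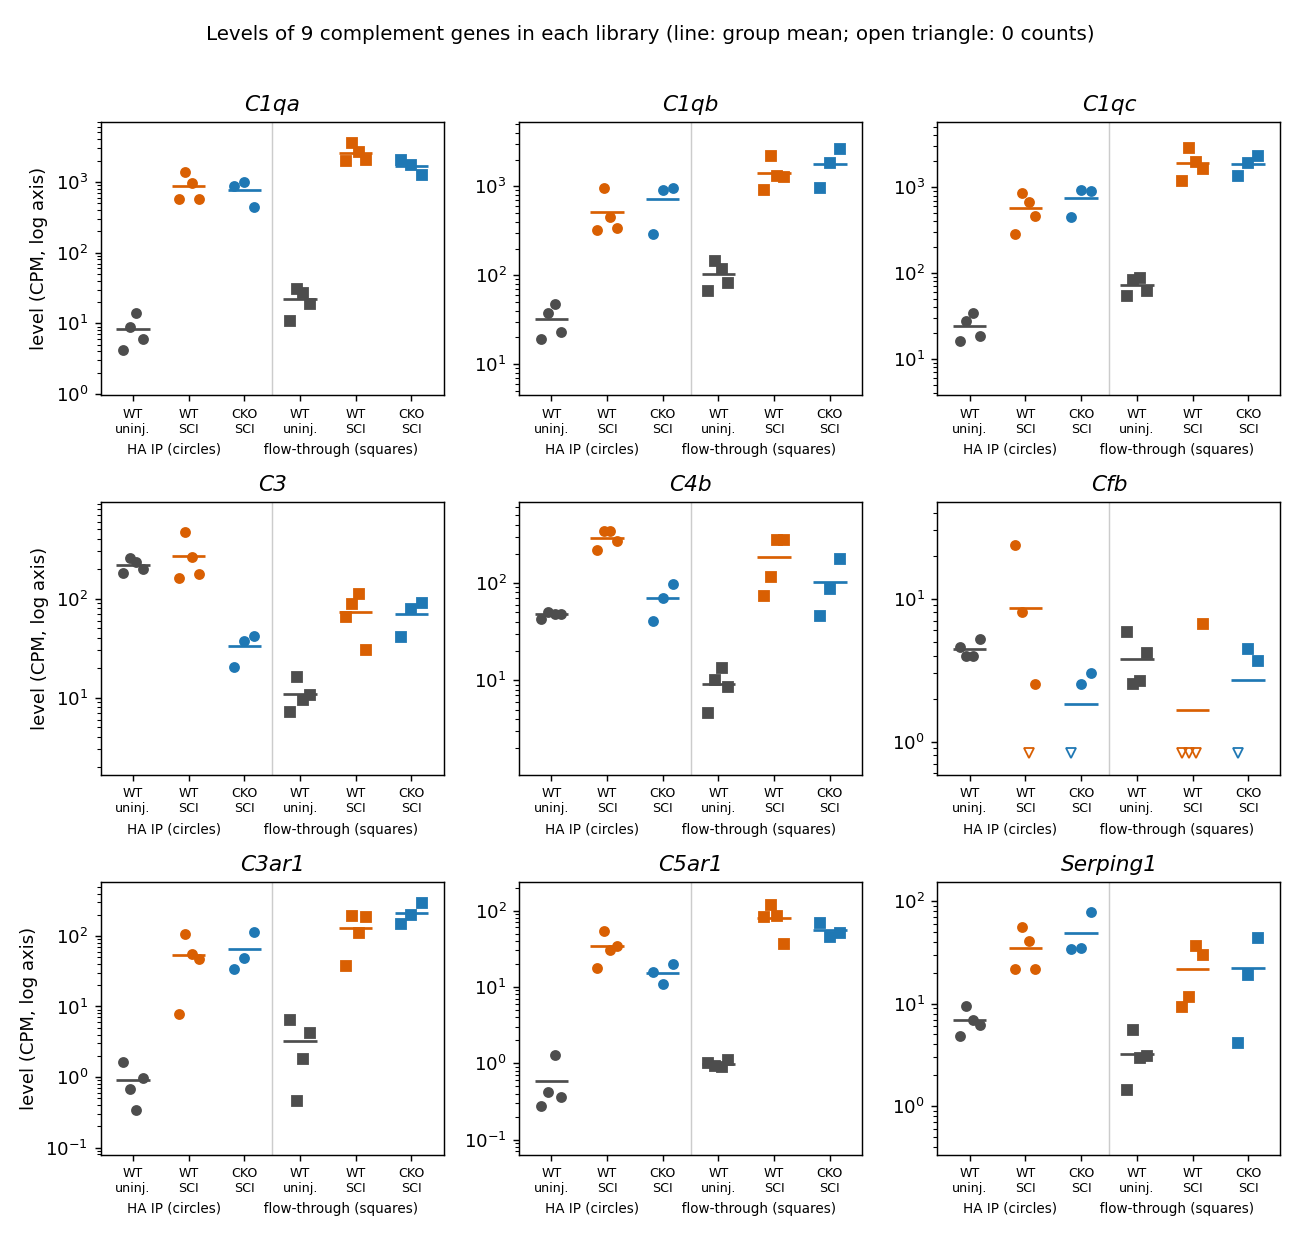
Level of each of the 9 complement genes in each of the 22 libraries (y axis, CPM on a log axis; x axis, arm; circles HA IP, squares flow-through; line, group mean; open triangles, libraries with 0 counts). Group means of the C1q, receptor and Serping1 genes are higher in both injured groups than in uninjured cord in both fractions, while in HA IP the 3 STAT3-CKO SCI libraries have the lowest C3 (20.47 to 42.24 CPM).

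The 3 C1q genes had the highest levels per kilobase of the 9 after injury in both fractions. They lie side by side on the minus strand of chromosome 4 (GRCm38), C1qb at 136880129 to 136886187, C1qc at 136889804 to 136893065 and C1qa at 136895917 to 136898803, within 18675 bases. In HA IP, C1qa was 4.16, 8.95, 14.2 and 6.03 CPM in uninjured animals 42, 79, 65 and 154. The WT SCI animals 9935, 9874, 9843 and 9596 had 577, 1393, 950 and 580 CPM. STAT3-CKO SCI animals 186, 531 and 270 had 870, 1000.1 and 446 CPM. Animals are listed in this order throughout. Every injured library was above every uninjured one, and the injured genotypes overlapped. The log2 difference between WT SCI and uninjured was 6.77 ± 0.486 (SE, adjusted p = 4.30e-08), and that between STAT3-CKO SCI and WT SCI was -0.24 ± 0.410 (adjusted p = 0.814).

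C1qb and C1qc, the partner chains, were also higher in every injured HA IP library than in every uninjured one. C1qb in HA IP was 19.3 to 47.9 CPM without injury, 325 to 953 CPM after WT SCI and 295 to 962 CPM after STAT3-CKO SCI. C1qc was 16.4 to 34.4, 284 to 868 and 445 to 917 CPM. Their log2 differences after injury in WT were 4.07 ± 0.455 for C1qb (adjusted p = 4.15e-06) and 4.61 ± 0.397 for C1qc (adjusted p = 2.95e-07). Between the injured genotypes they were 0.40 ± 0.433 (adjusted p = 0.683) and 0.33 ± 0.368 (adjusted p = 0.695), each about as large as its error.

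All 3 chains were more abundant in flow-through than in HA IP of the same animals, in every arm. In flow-through, C1qa was 10.8 to 31.0 CPM without injury, 1957 to 3509 CPM after WT SCI and 1235 to 2061 CPM after STAT3-CKO SCI. HA IP over flow-through within an animal was 0.285 to 0.579 for C1qa, 0.263 to 0.498 for C1qb and 0.239 to 0.482 for C1qc, below 1 in 11 of 11 animals for each. The HA IP minus flow-through log2 difference was called for all 3 chains in each arm, and for C1qb it was -1.66 ± 0.326 in uninjured (adjusted p = 0.00148), -1.54 ± 0.368 in WT SCI (adjusted p = 0.0136) and -1.38 ± 0.421 in STAT3-CKO SCI (adjusted p = 0.0386). The injury effect itself differed between the fractions by -0.04 ± 0.525 for C1qa, 0.35 ± 0.542 for C1qb and -0.06 ± 0.456 for C1qc (adjusted p 0.848 to 1.00). In STAT3-CKO SCI each of the 6 libraries, left out in turn, ended the call of at least 1 chain (-1.58 to -0.93 in the lost calls, adjusted p 0.0511 to 0.172), as did the fit of all 22 libraries for C1qa (adjusted p = 0.107) and C1qb (adjusted p = 0.0675). With the animal as a block the adjusted p there was 1.17e-10 for C1qa, 2.51e-14 for C1qb and 1.42e-13 for C1qc. That fit has 6 libraries of 3 animals, so these values rest largely on a spread shared across genes. They do not measure the spread among the 3 animals. The uninjured C1qa call was lost without flow-through of animal 79 (adjusted p = 0.0631) or 65 (adjusted p = 0.0531) or HA IP of 154 (adjusted p = 0.0501), and the WT SCI C1qb call without flow-through of 9874 (adjusted p = 0.0900) or 9843 (adjusted p = 0.0527).

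C1q and the microglia and macrophage markers were high in the same libraries. Of the 17 markers, 16 were called higher after injury in WT in both fractions (backgrounds 15.8% and 16.7%). Between the injured genotypes 0 of 17 were called in either (backgrounds 1.16% in HA IP and 0.118% in flow-through). By edgeR's unadjusted p under 0.05 there were 0 of 17 in HA IP. In flow-through there were 4 of 17, all 4 lower in STAT3-CKO SCI. The flow-through median of the list was -0.38, against 0.09 over all genes. The marker not called after injury was P2ry12, with log2 differences of -1.51 ± 0.696 in HA IP and -1.09 ± 0.568 in flow-through. C1q counts per count of the summed markers were 0.218 to 0.242 in HA IP without injury, 0.133 to 0.334 after WT SCI and 0.251 to 0.302 after STAT3-CKO SCI. Flow-through libraries gave 0.126 to 0.320. Summed C1q itself ranged from 39.90 to 8559 CPM over the same libraries. The make-up of the marker sum changed with injury. Lyz2 alone had a mean of 10.0 CPM in uninjured HA IP, where the sum averaged 274 CPM. In WT SCI it had 4906 of 8960.4 CPM in HA IP and 16499 of 28667 CPM in flow-through. The part of the markers in the C1q result was not tested.

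The 3 chains did not rise in proportion. C1q protein holds its chains in equal number, and the count ratio of C1qa to C1qb was 0.215 to 0.296 in uninjured HA IP and 1.46 to 2.10 in WT SCI HA IP. Flow-through gave 0.163 to 0.228 and 1.61 to 2.15. In STAT3-CKO SCI the ratio was 2.95, 1.11 and 0.464 in HA IP of animals 186, 531 and 270, and 2.16, 0.955 and 0.466 in their flow-through. These 3 animals had 89.23%, 79.96% and 52.18% of HA IP counts in Rn45s, so the ratio and the ribosomal share stood in the same order. The animal with the lowest share had the lowest ratio of any injured animal. Within WT SCI HA IP this order did not hold. Shares of 96.15%, 93.56%, 93.90% and 89.00% went with ratios of 1.77, 1.46, 2.10 and 1.72 in animals 9935, 9874, 9843 and 9596. C1qc per C1qb moved less, from 0.717 to 0.849 in uninjured to 0.872 to 1.48 in WT SCI HA IP. The part of the ribosomal share in the C1qa change was not tested.

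**Figure D2:**
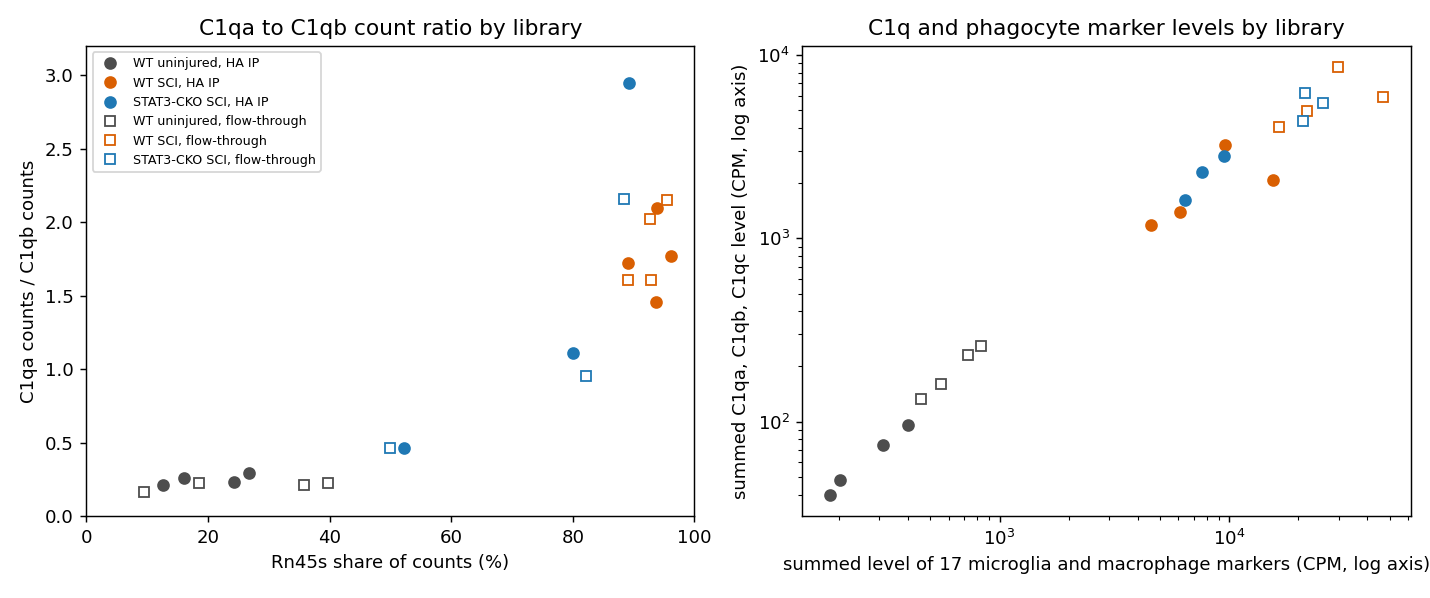
Left, C1qa counts divided by C1qb counts in each library (y axis) against the share of counts in Rn45s (x axis, percent). Right, summed C1q level against the summed level of 17 microglia and macrophage markers (both CPM, log axes). Colour marks the arm, filled circles HA IP and open squares flow-through. The libraries with under 40% Rn45s are the uninjured ones, with ratios of 0.163 to 0.296, and every injured library has at least 49.95%. The ratio is 0.464 and 0.466 in the 2 libraries near 50%, both from STAT3-CKO SCI animal 270.

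C3 was the one member called lower in STAT3-CKO SCI than in both other arms in HA IP. C3, the component on which all activation routes converge, lies on chromosome 17 at 57203970 to 57228136, minus strand. In HA IP it was 181, 256, 236 and 197 CPM in the uninjured mice. Injured WT mice had 161, 476, 262 and 179 CPM, and STAT3-CKO SCI mice 20.5, 36.9 and 42.2 CPM. The first 2 groups overlapped, and every STAT3-CKO SCI library was below every WT library. The log2 difference between the injured genotypes was -3.08 ± 0.407 (SE, adjusted p = 0.000676), that between STAT3-CKO SCI and uninjured was -2.71 ± 0.398 (adjusted p = 0.000122), and that between WT SCI and uninjured was 0.38 ± 0.334 (adjusted p = 0.422). Without WT SCI animal 9874 the last of these was -0.07. Both genotype calls of HA IP, C3 and C4b, held on leaving out each library in turn. STAT3-CKO SCI animal 186, whose Rn45s share in HA IP lay within the WT SCI range, had the lowest C3 (47 counts) and C4b (94 counts) of that group. Animal 270, with the lowest share, had the highest. The part of the ribosomal share in the C3 and C4b differences was not tested. Gfap, the gene of the astrocyte filament protein whose promoter drives the Cre, was also called lower in STAT3-CKO SCI than in WT SCI, in HA IP (-2.13 ± 0.320, adjusted p = 0.00247) and in flow-through (-2.47 ± 0.309, adjusted p = 0.000105), as the 1 astrocyte marker of 10 called in each. Of 8 oligodendrocyte markers Mbp was called lower in HA IP (-1.23 ± 0.274, adjusted p = 0.0328). The part of these genes' cells in the C3 and C4b differences was not tested.

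In flow-through C3 rose after injury in both genotypes, and no difference between the injured genotypes passed the test. Uninjured mice had 7.12, 16.0, 9.49 and 10.6 CPM, WT SCI mice 64.9, 88.8, 110.1 and 30.1 CPM, and STAT3-CKO SCI mice 41.3, 78.1 and 90.1 CPM. Injured and uninjured libraries did not overlap, and the injured genotypes did. The WT SCI values rest on 78 counts in all 4 libraries together. The log2 difference was 2.86 ± 0.467 for WT SCI against uninjured (adjusted p = 3.12e-05), 2.80 ± 0.460 for STAT3-CKO SCI against uninjured (adjusted p = 5.38e-05) and -0.06 ± 0.478 between the injured genotypes (adjusted p = 0.973).

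The balance of C3 between the fractions fell into 3 ranges that did not overlap. HA IP over flow-through within an animal was 25.4, 16.0, 24.9 and 18.7 in uninjured cord. WT SCI mice gave 2.47, 5.36, 2.38 and 5.95, and STAT3-CKO SCI mice 0.495, 0.473 and 0.469. The HA IP minus flow-through log2 difference was 4.37 ± 0.250 in uninjured (adjusted p = 3.53e-07), 1.79 ± 0.479 in WT SCI (adjusted p = 0.0276) and -1.14 ± 0.418 in STAT3-CKO SCI (adjusted p = 0.0885). With the animal as a block the last of these was called, at -1.12 (adjusted p = 0.00991). The WT SCI call did not hold without HA IP of animal 9874 (adjusted p = 0.117), nor without flow-through of 9935 (adjusted p = 0.0511), 9874 (adjusted p = 0.0553) or 9596 (adjusted p = 0.0654).

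**Figure D3:**
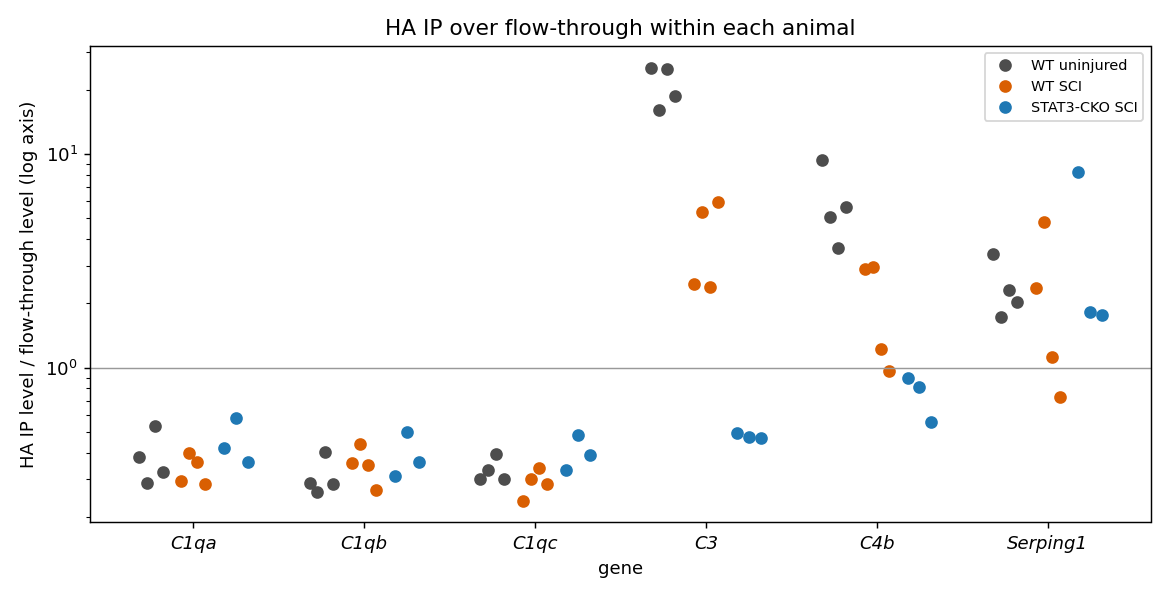
HA IP level divided by flow-through level within each animal (y axis, ratio on a log axis) for 6 genes (x axis); each point is 1 animal, coloured by arm, and the line marks equal levels. C3 falls into 3 groups, 16.0 to 25.4 without injury, 2.38 to 5.95 after WT SCI and 0.469 to 0.495 after STAT3-CKO SCI, while the C1q chains lie below 1 in all 11 animals. The Serping1 ratios of 4.82 (WT SCI animal 9874) and 8.22 (STAT3-CKO SCI animal 186) rest on 3 and 2 flow-through counts.

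Both shifts of C3 between the fractions were called as differences of effect. The injury effect was lower in HA IP than in flow-through by a log2 difference of -2.30 ± 0.548 (adjusted p = 0.0102), where 2.03% of all genes were called lower and the median of all genes was 0.26. It was the 1 member of 9 called there. Without animal 65 (adjusted p = 0.0521) or 9843 (adjusted p = 0.0614) the call was lost, while with the animal as a block it held on leaving out each of the 8 animals (-2.50 to -1.97, adjusted p 0.000276 to 0.00249). C4b was also called with the block (-1.67, adjusted p = 0.00974). The genotype effect of C3 was lower in HA IP by -3.05 ± 0.592 (adjusted p = 0.0481), again the 1 member of 9, with a background of 0.0198%. That call was lost with relative log expression scaling (adjusted p = 0.0844), without the ribosomal rows (adjusted p = 0.0549) and without any 1 of the injured animals other than 9843 (-3.21 to -2.73, adjusted p 0.0748 to 0.621). With the animal as a block it was -3.06 (adjusted p = 0.00106), and leaving out each of the 7 animals from the blocked fit gave -3.38 to -2.85 (adjusted p 0.00116 to 0.0294). In the astrocyte list the injury effect was also lower in HA IP, with a median of -1.83 over 10 genes and 5 called lower, while the median for genotype was 0.17 with 0 of 10 called. Summed astrocyte markers in flow-through were 1409 to 1657 CPM in uninjured libraries and 1644 to 4965 CPM in injured ones. The part of these markers, and of the microglia and macrophage markers, in the C3 values of flow-through was not tested.

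The promoter windows of C1qb and C3 are shown because in HA IP C1qb differed by injury and C3 by genotype. Each holds the 250 bases before the RefSeq start of the gene, minus strand, GRCm38.p6, in lower case with a match to GAGGAA, a core letter string of sites for the myeloid factor PU.1, in capitals. C1qb covers chr4:136886201-136886450 and C3 covers chr17:57228137-57228386.
C1qb: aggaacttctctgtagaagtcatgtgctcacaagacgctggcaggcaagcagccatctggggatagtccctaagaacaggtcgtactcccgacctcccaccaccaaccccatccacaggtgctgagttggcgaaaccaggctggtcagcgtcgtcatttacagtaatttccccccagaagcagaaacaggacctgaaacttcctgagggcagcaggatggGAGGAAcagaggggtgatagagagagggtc
C3: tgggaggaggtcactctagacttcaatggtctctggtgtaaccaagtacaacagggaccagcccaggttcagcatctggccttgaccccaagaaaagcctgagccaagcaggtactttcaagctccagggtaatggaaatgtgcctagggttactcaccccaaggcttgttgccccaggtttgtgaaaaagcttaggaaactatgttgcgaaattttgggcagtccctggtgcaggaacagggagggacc
RefSeq windows were matched by symbol for 5 of the 9 members. Both strands were searched for GAGGAA, for TTCNNNGAA (STAT factors), for the interferon-stimulated response element and for a kappaB motif, and such letters occur in 23.3%, 7.02%, 2.98% and 3.90% of 32851 windows of the same length. The C1qb match ends close to the start of the gene, its first base standing 30 bases before it. The C1qc window had 1 match to GAGGAA on the other strand and 1 to the kappaB motif. The windows of C3, C3ar1 and C5ar1 held no match to any of the 4. A match here is a string of letters and not a measured binding site.

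C4b, which encodes the C4 component that forms the classical pathway convertase, rose with injury in WT HA IP and was not called between STAT3-CKO SCI and uninjured HA IP. It lies on chromosome 17 at 34728380 to 34743882, minus strand, and has a near-identical copy, C4a, so its counts are uncertain. In HA IP it was 43.0, 50.8, 48.5 and 48.4 CPM in uninjured mice. The levels were 216, 343, 341 and 268 CPM after WT SCI and 41.0, 70.5 and 98.6 CPM after STAT3-CKO SCI. WT SCI stood above both other groups in every library, and the other two overlapped. The log2 difference was 2.67 ± 0.302 for injury in WT (adjusted p = 4.46e-06), -2.12 ± 0.330 between the injured genotypes (adjusted p = 0.00277) and 0.55 ± 0.305 for STAT3-CKO SCI against uninjured (adjusted p = 0.304).

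In flow-through C4b was 4.57 to 13.3 CPM without injury, 74.2, 116, 279 and 279.0 CPM after WT SCI, and 45.5, 86.9 and 177 CPM after STAT3-CKO SCI. Injured libraries were above uninjured ones, and the injured genotypes overlapped (log2 difference -0.91 ± 0.455, adjusted p = 0.391). Its rise in WT flow-through was 4.56 ± 0.473 (adjusted p = 3.14e-08). The genotype difference of C4b was not shown to differ between the fractions (-1.22 ± 0.580, adjusted p = 0.801). HA IP over flow-through was 3.64 to 9.41 without injury, 0.961 to 2.96 after WT SCI and 0.558 to 0.900 after STAT3-CKO SCI, and only the uninjured difference was called (2.45 ± 0.275, adjusted p = 3.04e-05).

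Cfb, the protease of the alternative pathway convertase, had few counts in the injured libraries, 53 at most. In HA IP it was 3.94 to 5.22 CPM in uninjured cord and 0 to 3.00 CPM after STAT3-CKO SCI, without overlap. It had 12, 12, 0 and 6 counts in WT SCI HA IP, 0, 15 and 53 in STAT3-CKO SCI HA IP, 0, 0, 0 and 4 in WT SCI flow-through, and 0, 3 and 16 in STAT3-CKO SCI flow-through. No comparison called it, and the log2 difference for injury in WT HA IP was 0.89 ± 0.962 (adjusted p = 0.518). For STAT3-CKO SCI against uninjured HA IP it was -1.16 ± 1.015 (adjusted p = 0.549). Its gene, at 34856374 to 34862518 on chromosome 17, overlaps 2 others on the same strand, Gm20547 and Mir6972, so its reads cannot all be assigned.

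The anaphylatoxin receptors C3ar1 and C5ar1, which bind the small fragments of C3 and C5 and are known from myeloid cells, rose after injury from the lowest levels of the 9 genes. C3ar1 in HA IP was 1.63, 0.679, 0.341 and 0.971 CPM in uninjured mice, 7.94, 106, 56.3 and 47.1 CPM after WT SCI, and 34.0, 48.2 and 114 CPM after STAT3-CKO SCI. C5ar1 was 0.272, 0.420, 1.29 and 0.361 CPM, then 17.9, 54.5, 30.3 and 34.5 CPM, and 15.7, 10.8 and 19.7 CPM in the same order. Neither receptor had an injured library within the uninjured range, and the lowest WT SCI value of C3ar1, in animal 9935, rests on 4 counts.

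The log2 difference for injury in WT HA IP was 5.99 ± 0.712 for C3ar1 (adjusted p = 7.65e-06) and 5.96 ± 0.697 for C5ar1 (adjusted p = 6.31e-06). In flow-through it was 5.39 ± 0.522 (adjusted p = 9.80e-09) and 6.38 ± 0.536 (adjusted p = 7.96e-10). Between the injured genotypes the HA IP difference was 0.16 ± 0.620 for C3ar1 (adjusted p = 0.925) and -1.25 ± 0.632 for C5ar1 (adjusted p = 0.335). Neither passed the test, although 2 of the 3 STAT3-CKO SCI values of C5ar1 lay below every WT SCI value.

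Both receptors were lower in HA IP than in flow-through where the test passed. C3ar1 differed by -1.87 ± 0.713 in uninjured (adjusted p = 0.0482) and -1.77 ± 0.409 in STAT3-CKO SCI (adjusted p = 0.00844), and C5ar1 by -1.88 ± 0.461 in STAT3-CKO SCI (adjusted p = 0.0121). In WT SCI, C3ar1 gave -1.36 ± 0.597 (adjusted p = 0.195) and was called with the animal as a block (-1.50, adjusted p = 0.0333). The uninjured C3ar1 call was lost with no filter on low counts (adjusted p = 0.0675) and without any 1 of 6 of the 8 libraries, all but HA IP of 42 and flow-through of 79 (adjusted p 0.0523 to 0.134), and it held with the block (-1.68, adjusted p = 0.0163). The STAT3-CKO SCI calls were lost without HA IP of 531 (adjusted p = 0.0567 for C3ar1 and 0.0558 for C5ar1), that of C3ar1 without flow-through of 270 (adjusted p = 0.0525) and that of C5ar1 without flow-through of 186 (adjusted p = 0.0509).

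Serping1 encodes the C1 inhibitor, which blocks the proteases bound to C1q, and it lies on chromosome 2 at 84765387 to 84775444. In HA IP it was 4.88, 9.47, 6.85 and 6.23 CPM in uninjured mice, 21.8, 55.8, 41.2 and 21.9 CPM after WT SCI, and 34.0, 34.9 and 77.7 CPM after STAT3-CKO SCI. All injured libraries exceeded all uninjured ones, and the injured genotypes overlapped. The log2 difference was 2.43 ± 0.489 for injury in WT (adjusted p = 0.00124) and 0.39 ± 0.501 between the injured genotypes (adjusted p = 0.739).

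In flow-through Serping1 was 1.44 to 5.48, 9.28 to 36.7 and 4.13 to 44.2 CPM in the 3 arms. STAT3-CKO SCI animal 186, inside the uninjured range, had 2 counts. Serping1 rose in WT by 3.01 ± 0.703 (adjusted p = 0.00182). The WT SCI libraries had 1, 3, 10 and 18 counts, so the size of this rise is uncertain. The STAT3-CKO SCI rise against uninjured was 3.00 ± 0.672 (adjusted p = 0.00213), and was lost without the flow-through library of animal 270 (1.93, adjusted p = 0.148). With C3 and C4b, Serping1 made up the 3 of 9 members called higher in HA IP than in flow-through of uninjured cord (1.14 ± 0.416, adjusted p = 0.0396), where 26.4% of all genes were. The Serping1 call was lost without the same 6 libraries as that of C3ar1 (adjusted p 0.0503 to 0.127) and held with the block (1.19, adjusted p = 0.00474). Another 4 of 9 were called lower there, against 24.2% of all genes. In WT SCI 1 of 8 tested was called higher and 3 lower (backgrounds 4.09% and 2.16%), and in STAT3-CKO SCI 0 of 9 higher and 5 lower (7.12% and 4.69%). The number called in either direction depended on single libraries: in uninjured cord 4 instead of 7 members were called without animal 65 in flow-through, and likewise without animal 154 in HA IP. In WT SCI it was 2 instead of 4 without flow-through of 9874. In STAT3-CKO SCI it was 1 instead of 5 without HA IP of 531, 2 without flow-through of 531 or 270, and 3 without that of 186. With the animal as a block, Serping1 was also called higher in HA IP with STAT3-CKO SCI (1.15, adjusted p = 0.0330).

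**Figure D4:**
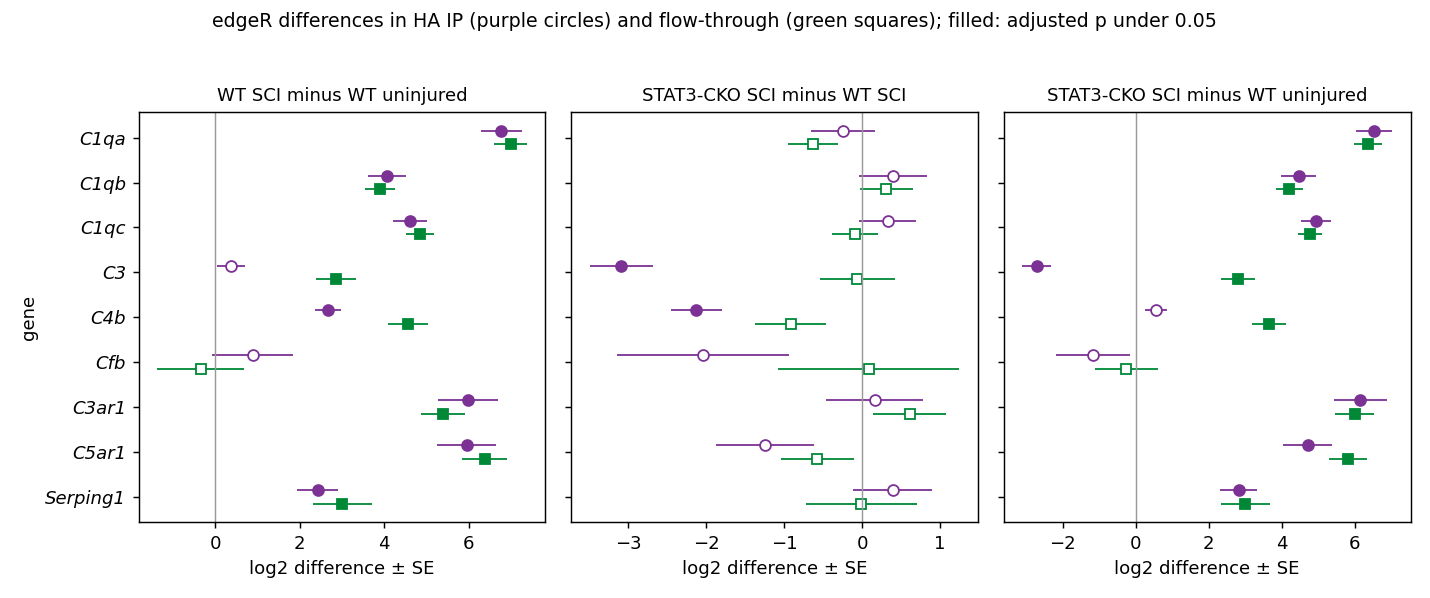
Log2 differences of the 9 genes between arms (x axis, ± SE; y axis, gene) in HA IP (purple circles) and flow-through (green squares); filled symbols have an adjusted p under 0.05. Between the injured genotypes only C3 and C4b in HA IP are filled, at -3.08 and -2.12.

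Per kilobase of exon, the order of the members changed between the arms. In uninjured HA IP C3 had the highest mean level, 42.3 ± 6.69 CPM per kb (SD, n = 4), followed by C1qb at 29.5 ± 12.2, and the ranges of these neighbours overlapped. In WT SCI HA IP the 3 C1q chains led, C1qa at 841 ± 372, C1qb at 475 ± 272 and C1qc at 296 ± 131 CPM per kb, with a gap to C3 at 52.4 ± 28.1 and C4b at 51.3 ± 10.8. The ranges of C1qa and C1qb overlapped, as did those of C1qb and C1qc and those of C3 and C4b. In STAT3-CKO SCI HA IP (n = 3) the chains led again, and C3 had rank 7 at 6.46 ± 2.21 CPM per kb, behind Serping1 at 21.0 ± 10.8, C3ar1 at 15.2 ± 9.96 and C4b at 12.3 ± 5.06, with every pair of neighbours from Serping1 to C5ar1 overlapping. In flow-through the chains had the highest levels in all 3 arms.

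Other genes of the pathway were read from a list. Of 46 listed components, receptors and regulators, 44 had a row and 27 were tested in HA IP. Injury in WT was accompanied by 7 higher and 1 lower of these 27 (backgrounds 15.8% and 10.9%), with a median of 0.24 against 0.00 over all genes. The largest rises were in integrin genes of complement receptors 3 and 4, Itgax (log2 difference 8.63) and Itgb2 (5.28), and in Cd93 (4.76), once proposed as a C1q receptor. Masp1, a protease gene of the lectin pathway, fell by 2.90, with 5 counts over the WT SCI HA IP libraries. Itgax had 11 counts over the uninjured libraries of each fraction, and Cd93 had 36 in HA IP and 10 in flow-through. Cd93 had 26 over the WT SCI HA IP libraries. The sizes of these differences are therefore uncertain. In flow-through 7 of 19 rose (background 16.7%), led by Itgax (7.46), Cd93 (6.06) and Itgb2 (5.10), and 3 of 19 fell, Cd55 (-2.47), Csmd1 (-1.95) and Susd4 (-1.59), where 14.3% of all genes were called lower, a share close to that of the list. Each of the 3 encodes a regulator of complement on cell surfaces. They had 5, 9 and 41 counts over the WT SCI flow-through libraries. In the shallowest of these, 3 counts were worth 27.83 CPM, and Cd55 was 14.5 to 29.3 CPM in uninjured flow-through.

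Against uninjured cord, STAT3-CKO SCI had 7 of 27 higher in HA IP (background 7.70%), led by Itgax (10.11), Itgb2 (5.48) and Itgam (4.05), and 7 of 19 higher in flow-through (10.4%), led by Itgax (8.07), Cd93 (5.44) and Itgb2 (5.36). Itgam encodes the partner of Itgb2 in complement receptor 3. Between the injured genotypes, edgeR called 0 of 27 in HA IP and 0 of 19 in flow-through, with 6 and 4 at an unadjusted p under 0.05.

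Clu, which encodes the fluid-phase regulator clusterin, was the one listed gene called higher in HA IP than in flow-through in all 3 arms, by 3.07 in uninjured, 3.40 in WT SCI and 3.07 in STAT3-CKO SCI. Its HA IP level was 2423 ± 387 CPM (SD, n = 4), 3611 ± 1200.0 CPM (n = 4) and 1879 ± 352 CPM (n = 3). Itgam was lower in HA IP in all 3 arms (-1.43, -1.88 and -1.08). In uninjured cord, 4 of 23 were called higher in HA IP, below the 26.4% of all genes, among them Colec12 (2.76), a scavenger receptor gene of the collectin family, and C2, which had 222 counts in HA IP and 0 in flow-through and was at least 12.9-fold higher against a floor of 3 counts over the group. Another 8 of 23 were lower (background 24.2%), led by Vtn (-1.78), Cd55 (-1.73) and Csmd1 (-1.54), and Vtn, which encodes the terminal pathway inhibitor vitronectin, was also lower in STAT3-CKO SCI (-2.12). The injury effect differed between the fractions for Susd4 (2.22 higher in HA IP, background 2.67%) and Colec12 (-4.15, background 2.03%), and the genotype effect for 0 of 27 by edgeR, with 1 at an unadjusted p under 0.05.

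The genes whose pattern over the 11 HA IP libraries was most like that of 3 members were ranked among 4051 genes by the root mean square difference of centred log2 CPM. For C1qb they included Tyrobp (0.44), Spp1 (0.49) and Csf1r (0.50), of which Tyrobp and Csf1r stand in the microglia and macrophage list. C3 was closest to Chil1 (0.43), Rgl1 (0.58), Fxyd1 (0.61) and Prelp (0.64). C4b was closest to Ndrg1 (0.45), Gpx1 (0.49), Ppp1r14b (0.49) and Ehd1 (0.50). No gene stood among the 4 nearest of more than 1 of these members, and all values come from the same 11 libraries.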

How the data were processed

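RNA was measured in HA IP and flow-through of 11 mice. The authors deposited raw read counts per gene, per the file headers of 21 of 22 columns; 1 column, WT SCI HA IP of animal 9596, is headed by animal and fraction only and was taken as counts because its values are whole numbers. Only these columns were used, and 58 other columns of per-sample values were not. The submitters' processing notes name CASAVA 1.8.2, edgeR and the build mm10 (GRCm38). For the aligner, counter, annotation and strand setting, nothing is given in the sources used here, and overlapping genes cannot be separated. Libraries were made from 5 ng of RNA with 10 PCR cycles, without stated molecular identifiers, so limits from counts cover counting error only.

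Groups followed the labels. edgeR 4.0.16 in R 4.3.3 (filterByExpr, TMM, quasi-likelihood test, two-sided, Benjamini-Hochberg adjustment, calls under 0.05) was fitted over the 11 libraries of a fraction, over both fractions of 1 arm, and over all 22 libraries for differences of effect. Titles tie both fractions to 1 animal, so fits with the animal as a block were made beside the main ones. Within 1 arm a blocked fit has few libraries for each gene, so its p-values rest largely on a spread shared across genes. Other alternatives were RLE scaling, DESeq2 1.42.0, no filter, ribosomal rows left out, other sample sets and each library or animal left out; leaving out animals from the blocked fit was added after the data were seen. Replicate libraries differed beyond counting noise (chi-square per degree of freedom at least 4.83). The scripts were tested on simulated data. Positions and exon lengths come from GENCODE vM21 and promoter windows from RefSeq GRCm38.p6. All 9 members were named, with up to 3 called genes per direction and comparison from the list of other complement genes, 10 defining markers where a result turned on one, and the 4 genes most like C1qb, C3 and C4b (mean log2 CPM of at least 3, prior count 2), of which 1 for C1qb is not reported here. Members and lists were chosen with earlier results of these data known. The labels call the samples separate animals by number.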

Additional observations from a re-analysis of the deposited data

Results flagged for a closer look

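The injury effect on C3 differed between the fractions by -2.30 on the log2 scale (adjusted p = 0.0102, edgeR's quasi-likelihood test of the interaction), with C3 not called between WT SCI and uninjured in HA IP and called higher in flow-through. The genotype effect on C3 differed between the fractions by -3.05 (adjusted p = 0.0481, same test), with C3 lower in HA IP of 3 of 3 STAT3-CKO SCI animals and no called difference in flow-through. In uninjured HA IP, the C5ar1 level of animal 65 was 1.287 CPM, where the other animals had 0.2723 to 0.4202 CPM. In WT SCI flow-through, Cfb was 6.682 CPM in animal 9596, from 4 counts, and 0 in the other libraries. In those, 3 counts are worth 11.01 to 27.83 CPM, so that level would give fewer than 3 counts in each. Animal 9596 is therefore not shown to stand apart. The C5ar1 and Cfb groups were the 2 of 36 groups of 4 libraries with such a value, and chance gives about 1 in 20.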

How the results depend on the processing

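Of 50 called gene results, the settings tried gave no change of sign, and C3 and C4b between the injured genotypes in HA IP kept their calls throughout. With the animal as a replicate block, the number of members called was 7, 5 and 7 in the comparisons of fractions (main 7, 4 and 5 in uninjured, WT SCI and STAT3-CKO SCI), 2 for the difference of injury effects (main 1) and 1 for that of genotype effects (main 1). The fit of all 22 libraries gave 2 in STAT3-CKO SCI. For the difference of injury effects, RLE scaling gave 2, DESeq2 gave 2, and leaving out Rn45s, Lars2 and Mir6236 gave 2. For that of genotype effects, RLE scaling gave 0 and leaving out the ribosomal rows gave 0. Scaling moved the median over all genes of the difference of injury effects from 0.26 to 0.07 (RLE) or -0.08 (DESeq2), and genes called higher from 405 of 712 to 258 of 663 or 496 of 1184; C3 was lower under each. Leaving out 1 library or animal gave 4 to 7 called members in uninjured, 2 to 4 in WT SCI, 1 to 5 in STAT3-CKO SCI, and 0 to 2 and 0 to 1 for the differences of effect.

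Changes of sign were among differences that were not called. Serping1 between genotypes in flow-through was 0.03 with no filter, and the C5ar1 difference of injury effects was 0.13 with the replicate block. On leaving out 1 library or animal, log2 differences ranged as follows. Injury in WT HA IP gave -0.07 to 0.55 for C3 and -0.19 to 1.31 for Cfb, and in flow-through -6.76 to 0.03 for Cfb. Genotype in HA IP gave -0.47 to 0.10 for C1qa, -0.48 to 0.72 for C3ar1 and -0.10 to 0.74 for Serping1. Genotype in flow-through gave -0.09 to 0.62 for C1qb, -0.29 to 0.16 for C1qc, -0.38 to 0.24 for C3, -0.28 to 6.51 for Cfb and -1.02 to 0.42 for Serping1. STAT3-CKO SCI against uninjured flow-through gave -0.62 to 0.09 for Cfb. HA IP minus flow-through in STAT3-CKO SCI gave -1.01 to 0.05 for C4b. The difference of injury effects gave -0.22 to 0.25 for C1qa, -0.12 to 0.07 for C1qc and -0.53 to 0.46 for C5ar1, and that of genotype effects -0.12 to 0.30 for C1qb and -0.01 to 0.95 for Serping1. The causes were not tested. Depth limited the injured flow-through most, where Cfb had 4 counts over the WT SCI libraries.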
